A study of Mus musculus with 14 samples.

Results

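The genes described here are 33 mouse genes of antigen presentation and of the response to interferon gamma, chosen by symbol: 9 of the MHC class II pathway, 10 of the MHC class I pathway, 11 interferon-induced GTPases, and Irf1, Irf8 and Cxcl9. Of the 33, 29 had a value of their own among 18194 genes of the array, and 28 were among the 10916 genes tested. H2-DMb1, Gbp4 and Tgtp1 lay on probe sets that carry several gene symbols, Gbp5 on none used here, and these 4 were not analysed. Cxcl9, with a mean log2 level of 5.04, was too dim for the test, which took genes with a mean of at least 7.35. Ciita, at 7.44, was the member just inside that limit.

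Lung RNA of BALB/c mice was hybridised to Affymetrix mouse arrays, 1 array per sample. In 4 4T1 lungs the mouse carried a tumour grown from 4T1 mammary carcinoma cells, which the labels call metastatic, in the fourth mammary fat pad. In 5 67NR lungs the tumour came from 67NR cells, a sister line labelled non-metastatic, and 5 normal lungs came from mice given PBS. Tumour-bearing mice were killed 6 days after inoculation, or with tumours of about 50 mm3, and all lungs were flushed with PBS. Each tumour type is a single cell line, the labels give no age, sex or batch, and they do not say that each sample came from its own mouse; the p-values therefore measure the spread between these samples.

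Interferon gamma, made mainly by T and NK cells, signals through its receptor and the kinases JAK1 and JAK2 to transcription factors that bind GAS elements and that switch on IRF1, which acts through ISRE elements. MHC class I molecules show peptides from inside the cell on nearly every cell type, and the immunoproteasome and the TAP transporter supply those peptides. MHC class II molecules show peptides from outside and are abundant on B cells, dendritic cells and macrophages, under the control of the coactivator CIITA. The guanylate-binding proteins (Gbp genes) and immunity-related GTPases (Iigp1, Igtp, Irgm and Tgtp genes) guard the cell interior against microbes and are among the genes that respond most to interferon gamma in mice.

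Promoter windows were searched for the letters of ISRE, GAS and CCAAT elements, and for no others. The windows below are printed for the groups that the results compare. RefSeq windows of 300 bases (GRCm38.p6, 250 before and 50 after the start of transcription) matched 25 of the 33 genes; Cd74, Ciita, Gbp4, Gbp6, H2-Ab1, Iigp1, Nlrc5 and Tap2 were not among them. The ISRE core, GAAA followed by any 2 bases and by GAAA again, was searched on both strands. It stood in the windows of all 8 GTPase genes matched, of 1 of 8 class I genes (B2m) and of 0 of 6 class II genes. Among all 27025 genes with a window, counting any window of a gene, it stood in 3.99%. The GAS element TTCNNNGAA reads the same on both strands. It stood in 5 of the 8 GTPase genes, in Irf1, Irf8 and Psmb8, and in 9.55% of all genes. The box CCAAT, on either strand, stood in all 6 class II genes matched, in 5 of them between 43 and 61 bases before the start. It also stood in 6 of 8 class I genes, 2 of 8 GTPase genes, all 3 of Irf1, Irf8 and Cxcl9, and in 41.1% of all genes. Of the pairs of GAS and ISRE matches in one window, 0 shared bases; in Igtp, Irgm2 and Tgtp1 the ISRE match followed the GAS match after 2 bases. The windows of Psmb9 and Tap1, which are read in opposite directions on chromosome 17, have 275 of their 300 bases in common. Their CCAAT matches are the same bases, so the class I count above includes a single box for both genes. A match is a description of the letters, not evidence of binding.

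The windows of Irf1 (chr11:53769764-53770063, + strand, GAS in capitals) and of the GTPases Igtp (chr11:58199306-58199605, + strand), Irgm2 (chr11:58214727-58215026, + strand) and Gbp7 (chr3:142530086-142530385, + strand), with GAS and ISRE matches in capitals, read from 5′ to 3′ as follows.
Irf1: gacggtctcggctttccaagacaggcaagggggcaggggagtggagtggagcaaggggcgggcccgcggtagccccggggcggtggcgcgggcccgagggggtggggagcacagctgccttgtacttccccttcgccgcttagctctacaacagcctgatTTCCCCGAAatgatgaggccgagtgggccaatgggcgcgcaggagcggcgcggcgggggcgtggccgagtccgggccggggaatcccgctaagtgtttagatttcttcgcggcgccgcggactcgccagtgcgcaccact
Igtp: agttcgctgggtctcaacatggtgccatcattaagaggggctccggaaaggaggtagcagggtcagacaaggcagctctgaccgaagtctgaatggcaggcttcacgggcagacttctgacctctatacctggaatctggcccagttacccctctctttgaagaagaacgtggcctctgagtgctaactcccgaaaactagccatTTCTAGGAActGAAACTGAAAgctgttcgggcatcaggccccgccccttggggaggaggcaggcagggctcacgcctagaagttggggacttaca
Irgm2: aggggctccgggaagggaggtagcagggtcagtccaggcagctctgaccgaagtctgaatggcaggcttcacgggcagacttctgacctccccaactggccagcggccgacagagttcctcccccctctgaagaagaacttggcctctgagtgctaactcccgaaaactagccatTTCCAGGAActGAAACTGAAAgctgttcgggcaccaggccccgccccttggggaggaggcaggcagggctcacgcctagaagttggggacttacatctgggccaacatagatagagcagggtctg
Gbp7: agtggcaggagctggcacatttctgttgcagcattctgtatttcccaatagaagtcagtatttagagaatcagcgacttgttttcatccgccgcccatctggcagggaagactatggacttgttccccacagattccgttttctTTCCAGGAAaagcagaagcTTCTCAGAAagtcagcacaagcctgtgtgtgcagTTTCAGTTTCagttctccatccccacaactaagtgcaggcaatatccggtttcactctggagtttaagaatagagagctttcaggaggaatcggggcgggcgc

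The windows of the class II genes H2-Eb1 (chr17:34305617-34305916, + strand) and H2-Ob (chr17:34238655-34238954, + strand), with CCAAT or its reverse complement in capitals, read as follows.
H2-Eb1: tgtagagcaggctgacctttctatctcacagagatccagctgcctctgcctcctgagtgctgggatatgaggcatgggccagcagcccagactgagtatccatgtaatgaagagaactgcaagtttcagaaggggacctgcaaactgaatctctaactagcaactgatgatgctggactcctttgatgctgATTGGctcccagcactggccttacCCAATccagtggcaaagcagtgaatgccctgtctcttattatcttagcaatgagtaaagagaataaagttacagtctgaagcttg
H2-Ob: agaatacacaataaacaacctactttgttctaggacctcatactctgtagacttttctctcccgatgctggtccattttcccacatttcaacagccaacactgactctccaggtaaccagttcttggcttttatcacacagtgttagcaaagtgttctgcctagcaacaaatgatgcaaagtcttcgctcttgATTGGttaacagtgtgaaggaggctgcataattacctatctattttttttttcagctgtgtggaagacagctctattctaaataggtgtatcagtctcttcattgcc

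Levels are deposited intensities converted to log2(intensity + 16), and fold changes on that scale understate the change of dim genes. Array medians ranged from 113 to 116. Markers of the labelled tissue were bright in every array: the summed intensity of 9 alveolar type 2 genes was 70252 to 80317 in 4T1, 70256 to 82718 in 67NR and 72820 to 83199 in normal lungs. Neutrophil markers set the 4T1 lungs apart, with 7 of 8 tested genes higher than in normal lungs and a summed intensity over 9 genes of 22875 to 31512 in 4T1, 5733 to 9169 in 67NR and 4147 to 7632 in normal lungs; their part in the values that follow was not tested. In whole lung, fewer cells of a type and less RNA per cell cannot be told apart.

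None of the antigen presentation and interferon gamma genes differed between groups past the threshold, an adjusted p under 0.05 in limma over all 10916 genes. In 4T1 against normal lungs 0 of 28 passed, where 0.412% of all genes did, and 1 (Tap2, lower in 4T1 lungs) had an unadjusted p under 0.05, where 6.56% of all genes did. In 67NR against normal lungs 0 of 28 passed, as did 0% of all genes, and 3 members (H2-K1, H2-Ab1 and Gbp6) had an unadjusted p under 0.05, where 9.13% of all genes did; all 3 were higher in 67NR lungs, as were 4.62% of all genes. In 4T1 against 67NR lungs 0 of 28 passed where 0.76% of all genes did, and 3 members (Tap2, Psmb10 and Gbp6) had an unadjusted p under 0.05, where 12.4% of all genes did; all 3 were lower in 4T1 lungs, as were 6.22% of all genes. Limma was the single tool run.

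The arrays bounded these changes closely. The 95% interval of the log2 change lay inside a 1.5-fold difference in both directions for 27 of 28 genes in 4T1 against normal lungs, for 26 in 67NR against normal lungs and for 26 in 4T1 against 67NR lungs. It lay inside a 2-fold difference for all 28 in each of the 3 comparisons. H2-Ob was outside the narrower bound in all 3 comparisons, and Gbp6 in both comparisons that involve 67NR lungs.

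The signs leaned one way in the 67NR lungs. Of the 28 tested members 24 had a positive change in 67NR against normal lungs, where 49.6% of all genes had one, and 14 had one in 4T1 against normal lungs, where 49.5% had. In 4T1 against 67NR lungs 3 of 28 had a positive change, where 49.6% of all genes had one. These genes move together within a lung and the comparisons share arrays, so the members are not independent replicates. Over the alternatives the number of positive changes ranged from 20 to 28 in 67NR against normal lungs, from 4 to 18 in 4T1 against normal lungs and from 0 to 7 in 4T1 against 67NR lungs. The 0 was of 24 members tested with the upper 40% of genes. That filter left out H2-Oa, H2-Ob and Nlrc5, which had positive changes in the main fit. The other ends of these ranges were of 28 members. The median log2 change over all genes tested was -0.00077, -0.0010 and -0.00079 in 4T1 against normal, 67NR against normal and 4T1 against 67NR lungs.

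**Figure D1:**
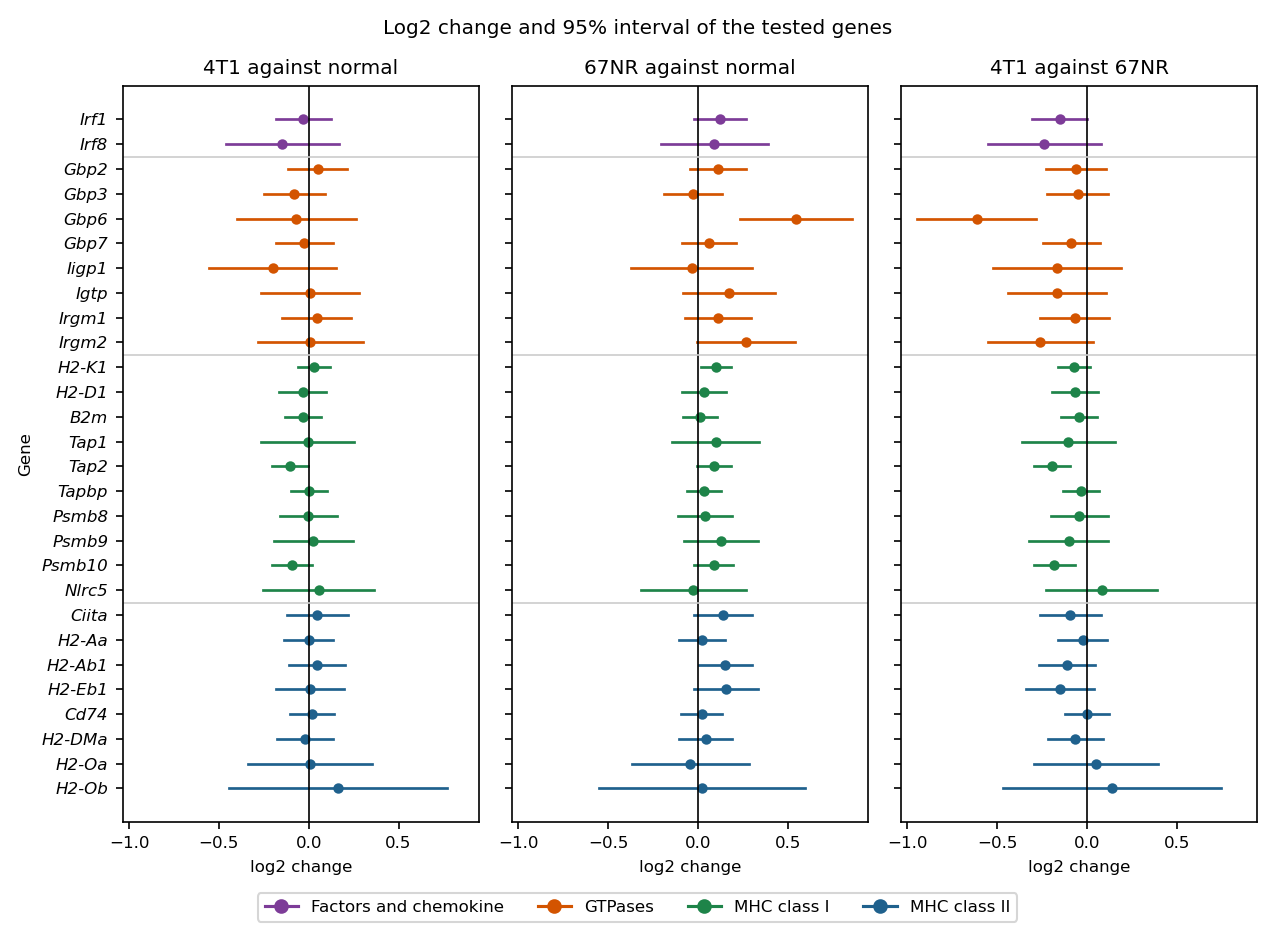
Log2 change (x axis) of the 28 tested genes (y axis) in 3 comparisons; points are limma estimates and bars their 95% intervals, coloured by class. Most estimates lie close to 0, Gbp6 stands at 0.54 in 67NR against normal lungs and at -0.61 in 4T1 against 67NR lungs, and H2-Ob has the widest interval in 4T1 against normal lungs.

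The class I pathway genes differed little between the groups. Their median log2 change over 10 genes was -0.0042 in 4T1 against normal, 0.064 in 67NR against normal and -0.069 in 4T1 against 67NR lungs. With 1 array left out at a time these medians ranged over -0.035 to 0.022, 0.039 to 0.093 and -0.086 to -0.040 in the same order, the lowest of 67NR against normal being without normal replicate 3 and the one nearest 0 of 4T1 against 67NR without 4T1 replicate 2. The per-array mean of the class, each gene centred on its own mean over 14 arrays, was -0.033 ± 0.086 in 4T1 (SD, n = 4), 0.043 ± 0.048 in 67NR (SD, n = 5) and -0.017 ± 0.080 across normal lungs (SD, n = 5), and the groups overlapped.

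H2-K1 encodes a classical class I heavy chain, and its probe set can also bind other class I genes, as can that of H2-D1, so their levels are uncertain as to the gene. H2-K1 stood at 13.05, 12.99, 13.00 and 13.03 in 4T1 lungs, 13.05, 13.17, 13.06, 13.07 and 13.10 in 67NR lungs and 13.06, 13.00, 12.98, 13.01 and 12.91 in normal lungs. It was the class I gene with the smallest p in 67NR against normal lungs (log2 change 0.10, SE 0.039, limma adjusted p = 0.468), which did not pass. All 4T1 arrays lay below all 67NR arrays, but replicate 1 of each group had the same value to 2 decimals. H2-D1, the other classical heavy chain, and B2m, the light chain all class I molecules share, had log2 changes of -0.034 and -0.030 in 4T1 against normal lungs and of 0.032 and 0.014 in 67NR against normal lungs.

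Tap2, a subunit of the peptide transporter of the endoplasmic reticulum, had the smallest adjusted p of all members in 4T1 against 67NR lungs. Its level was 9.54, 9.37, 9.51 and 9.53 in 4T1 lungs, 9.69, 9.66, 9.68, 9.74 and 9.65 in 67NR lungs and 9.68, 9.61, 9.60, 9.58 and 9.51 in normal lungs. Every 4T1 array lay below every 67NR array, with the normal arrays spread across both ranges (log2 change -0.19, SE 0.047, limma adjusted p = 0.0743; 95% interval -0.29 to -0.094). Against normal lungs its log2 changes were -0.11 in 4T1 (limma adjusted p = 0.732) and 0.088 in 67NR lungs (limma adjusted p = 0.579), neither past the threshold. Its partner Tap1 had a log2 change of -0.10 in 4T1 against 67NR lungs (95% interval -0.36 to 0.15), and its arrays overlapped in all 3 comparisons. Tapbp, tapasin, which bridges class I molecules and the transporter, had one of -0.033 (95% interval -0.13 to 0.066).

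Psmb8, Psmb9 and Psmb10 are the catalytic subunits of the immunoproteasome. Psmb10 stood at 10.19, 9.96, 10.10 and 10.08 in 4T1 lungs, 10.30, 10.20, 10.22, 10.30 and 10.30 in 67NR lungs and 10.26, 10.13, 10.08, 10.22 and 10.19 in normal lungs. Here too every 4T1 array was below every 67NR array (log2 change -0.18, SE 0.053, limma adjusted p = 0.148), and the normal arrays overlapped both groups. Psmb9 and Psmb8 had log2 changes of -0.10 and -0.043 in 4T1 against 67NR lungs with overlapping arrays, so of the 3 subunits 1 separated these groups. Psmb5, Psmb6 and Psmb7, the constitutive subunits that they replace, had changes of -0.039, -0.050 and -0.0076.

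Nlrc5, the coactivator of class I genes, stood at 7.89, 7.85, 8.08 and 7.84 in 4T1 lungs, 7.35, 7.74, 7.89, 8.28 and 7.91 in 67NR lungs and 8.11, 7.73, 7.71, 8.0 and 7.75 in normal lungs. In 67NR lungs the lowest and the highest of all 14 arrays were both found, replicates 1 and 4. Its log2 changes were 0.056, -0.025 and 0.081 in 4T1 against normal, 67NR against normal and 4T1 against 67NR lungs, with limma adjusted p-values of 0.991, 0.973 and 0.878. Without 67NR replicate 1 the last was -0.039 and the change in 67NR against normal lungs 0.096.

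**Figure D2:**
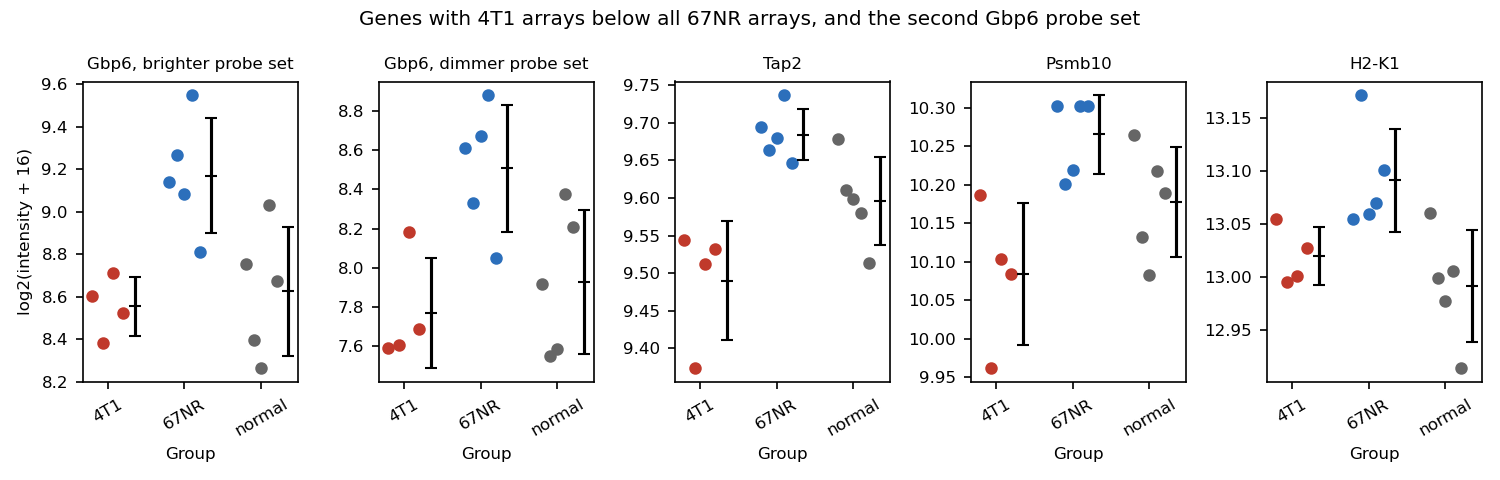
log2(intensity + 16) (y axes, which do not start at 0) by group (x axis) for the genes whose 4T1 arrays all lay below the 67NR arrays, and for the dimmer Gbp6 probe set, where they did not; each point is 1 array and black bars are mean ± SD. The Gbp6 means are 8.55 in 4T1, 9.17 in 67NR and 8.62 in normal lungs, and the H2-K1 groups nearly touch.

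The class II genes showed no separation of the groups, and 0 of the 8 had non-overlapping arrays in any of the 3 comparisons. Their median log2 change was 0.013 in 4T1 against normal, 0.033 in 67NR against normal and -0.044 in 4T1 against 67NR lungs. Single arrays moved these medians by more than 1.5 times, and in 4T1 against normal lungs turned the sign. In 4T1 against normal lungs the median was -0.063 without 4T1 replicate 3, -0.016 without normal replicate 3 and 0.068 without 4T1 replicate 2, over a range of -0.063 to 0.068. In 67NR against normal lungs it was 0.0068 without normal replicate 3 and 0.12 without normal replicate 1, the ends of its range. In 4T1 against 67NR lungs it was -0.13 without 4T1 replicate 3 and -0.015 without 4T1 replicate 2, the ends of its range. The per-array class mean was 0.00063 ± 0.20 in 4T1 (SD, n = 4), 0.032 ± 0.071 in 67NR (SD, n = 5) and -0.033 ± 0.17 across normal lungs (SD, n = 5), so single lungs differed more than the groups.

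Ciita, the coactivator that controls class II genes, stood at 7.36, 7.27, 7.73 and 7.34 in 4T1 lungs, 7.495, 7.62, 7.44, 7.51 and 7.53 in 67NR lungs and 7.44, 7.41, 7.27, 7.39 and 7.39 in normal lungs. In 4T1 lungs replicate 3 lay above all other arrays and replicates 1, 2 and 4 within or near the normal range. Its log2 change was 0.047 in 4T1 against normal lungs, -0.055 without 4T1 replicate 3, and 0.14 in 67NR against normal lungs (limma adjusted p = 0.980 and 0.608).

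H2-Ab1, the beta chain of the I-A molecule, stood at 11.59, 11.49, 11.70 and 11.58 in 4T1 lungs, 11.64, 11.76, 11.62, 11.69 and 11.79 in 67NR lungs and 11.76, 11.59, 11.41, 11.58 and 11.39 in normal lungs. The 67NR arrays lay in the upper part of the normal range or just above it, and the change did not pass (log2 change 0.15, SE 0.068, limma adjusted p = 0.529; 95% interval 0.0063 to 0.30). H2-Eb1, the I-E beta chain, had a log2 change of 0.16 in 67NR against normal lungs (limma adjusted p = 0.608), and H2-Aa, the I-A alpha chain, one of 0.023 (limma adjusted p = 0.935). The invariant chain Cd74, which escorts class II molecules, had changes of 0.019 in 4T1 and 0.021 in 67NR against normal lungs, and H2-DMa, a subunit of the peptide exchange factor, -0.021 and 0.043.

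H2-Oa and H2-Ob form H2-O, the B cell inhibitor of peptide exchange, and varied most from lung to lung among the class II genes. H2-Ob stood at 8.44, 7.91, 9.15 and 7.73 in 4T1 lungs, 8.51, 8.04, 8.16, 7.89 and 8.22 in 67NR lungs and 8.67, 7.73, 7.47, 8.47 and 8.37 in normal lungs. 4T1 replicate 3 was the highest array and normal replicate 3 the lowest, and the groups overlapped throughout. The within-group SD of H2-Ob was 0.48, larger than that of 98.9% of the genes tested or equal to it, against a median of 0.11 over all genes. Its log2 change in 4T1 against normal lungs, 0.16 (95% interval -0.45 to 0.77), was -0.12 without 4T1 replicate 3. H2-Oa, with a within-group SD of 0.27, had log2 changes of 0.0076 in 4T1 and -0.042 in 67NR against normal lungs (95% intervals -0.34 to 0.35 and -0.37 to 0.28).

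The level of the class II genes followed that of B cell markers from lung to lung, in all 3 groups. The class mean was highest in 4T1 replicate 3 (0.26) and normal replicate 1 (0.21), and the mean of 7 B cell markers, centred in the same way, was also highest there (0.51 and 0.36). Both were lowest in 4T1 replicate 2, at -0.18 for class II and -0.49 for the B cell markers, and in normal replicate 3, at -0.24 and -0.56. Across the 14 arrays, which share their processing and scale, Pearson's r was 0.97 and Spearman's rho 0.97, r was 0.97 for deviations from the group means, and it was 0.95 without normal replicate 3 and 4T1 replicate 2, the arrays farthest from the median of the markers; these are descriptions, given without a test. For deviations from group means, 5 of the 8 class II genes had an r of at least 0.8 with the markers, where 2.32% of all genes tested did, and H2-Ob (0.93) and H2-DMa (0.90) had the highest. In the same measure 0 of the 10 class I genes and 0 of the 8 GTPases reached 0.8, with class medians of 0.39 and 0.38, but Iigp1 (0.77), Psmb9 (0.76), Tap1 (0.71), Psmb8 (0.71) and Psmb10 (0.69) lay just under it, and Irf8, a factor of B cells and myeloid cells, had an r of 0.85. The class mean of the class I genes had, beside the markers, an r of 0.70 and a rho of 0.71 across the arrays, 0.71 for deviations from group means and 0.45 without the same pair of arrays, on which part of the relation rests. For the GTPases these values were 0.47, 0.53, 0.45 and 0.12; the differences between classes were not tested. The summed intensity of the B cell markers was 1784 to 4353 in 4T1, 2353 to 3423 in 67NR and 1709 to 3703 in normal lungs, and 0 of 6 tested markers passed in any comparison. Other immune markers moved in some of the same arrays. NK and cytotoxic cell markers averaged 0.26 in 4T1 replicate 3 and 0.14 in normal replicate 1. In 4T1 replicate 2 and normal replicate 3 they averaged -0.14 and -0.17. T cell markers stood in these arrays, in the same order, at 0.29, 0.20, -0.13 and 0.00067. Dendritic cell markers stood at 0.057, -0.14, -0.20 and -0.076. Markers of monocytes and interstitial macrophages stood at 0.23, 0.0031, -0.12 and -0.22, and those of alveolar macrophages at 0.26, -0.14, 0.027 and 0.12. Correlations were computed for the B cell markers alone, so the relation to these other lists is not measured here. Whether the relation is particular to B cell markers, and the part of B cells in the class II values, was not tested.

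**Figure D3:**
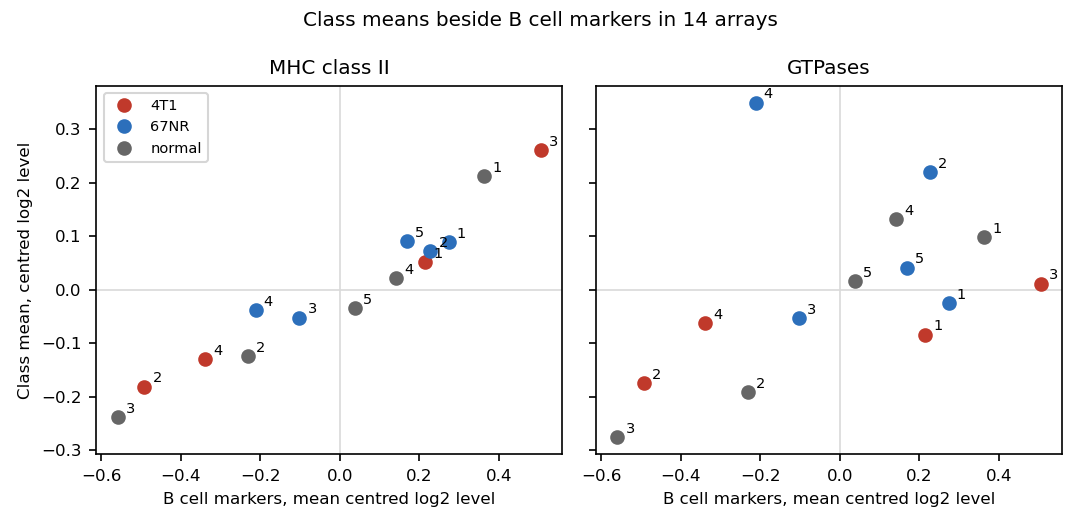
Mean centred log2 level of the class II genes (left, y axis) and the GTPases (right, y axis) against that of 7 B cell markers (x axes); each point is 1 array, coloured by group and numbered by replicate. Class II rises with the markers in all 3 groups (r = 0.97, 14 arrays), whereas among the GTPases 67NR replicate 4 stands at 0.35 and its markers at -0.21.

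Markers of other cells that present antigen or make interferon gamma overlapped between the groups. The mean centred level of 9 dendritic cell markers was -0.20 to 0.057 in 4T1, 0.0047 to 0.11 in 67NR and -0.19 to 0.091 in normal lungs. That of 9 NK and cytotoxic cell markers was -0.14 to 0.26 in 4T1, -0.18 to 0.21 in 67NR and -0.20 to 0.14 in normal lungs, and that of 8 T cell markers -0.13 to 0.29 in 4T1, -0.12 to 0.039 in 67NR and -0.091 to 0.20 in normal lungs. Among 9 markers of monocytes and interstitial macrophages 1 was higher in 4T1 than in normal lungs, the Fc receptor Fcgr4 (log2 change 0.41, limma adjusted p = 0.0475).

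The GTPases carried the largest differences among the members, between 67NR lungs and the other groups, and none passed. Their median log2 change over 8 genes was -0.0085 in 4T1 against normal, 0.11 in 67NR against normal and -0.13 in 4T1 against 67NR lungs. The median of 4T1 against 67NR lungs was -0.052 without 67NR replicate 4, and that of 4T1 against normal lungs ranged over -0.056 to 0.032 with 1 array left out at a time, so its sign turned. All 8 had a negative change in 4T1 against 67NR lungs, and 6 of 8 a positive one in 67NR against normal lungs, the exceptions being Gbp3 (-0.028) and Iigp1 (-0.035). The per-array class mean was -0.078 ± 0.077 in 4T1 (SD, n = 4), 0.11 ± 0.17 in 67NR (SD, n = 5) and -0.045 ± 0.18 in normal lungs (SD, n = 5).

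Gbp6, a guanylate-binding protein gene, was the member with the largest change. Its brighter probe set stood at 8.60, 8.38, 8.71 and 8.52 in 4T1 lungs, 9.14, 9.27, 9.08, 9.55 and 8.81 in 67NR lungs and 8.75, 8.40, 8.26, 9.03 and 8.68 in normal lungs. Every 4T1 array lay below every 67NR array, and normal replicate 4 lay within the 67NR range (log2 change -0.61, SE 0.15, limma adjusted p = 0.0854; 95% interval -0.95 to -0.28). Against normal lungs the log2 change was 0.54 in 67NR lungs (SE 0.15, limma adjusted p = 0.300) and -0.070 in 4T1 lungs (limma adjusted p = 0.988). A dimmer probe set of Gbp6 stood at 7.59, 7.60, 8.18 and 7.69 in 4T1, 8.61, 8.33, 8.67, 8.88 and 8.05 in 67NR and 7.92, 7.55, 7.58, 8.38 and 8.21 in normal lungs. There the 4T1 and 67NR arrays overlapped, since 4T1 replicate 3 lay above 67NR replicate 5, but the order of the group means was the same. The difference between 4T1 and 67NR lungs passed without 67NR replicate 5 (log2 change -0.70, limma adjusted p = 0.0392) and with array weights (limma adjusted p = 0.0464), and over all 27 alternatives its adjusted p ranged from 0.0392 to 0.238. Gbp genes are near-identical copies of each other in part, so signal may come from relatives.

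In all, the 4T1 arrays lay below all 67NR arrays for H2-K1, Tap2, Psmb10 and Gbp6, that is 4 of 28 tested members, where 2.22% of all genes did, and 0 members lay wholly higher, where 2.35% of all genes did. No member had non-overlapping arrays in either comparison with normal lungs, where 1.4% of all genes were wholly higher and 1.32% wholly lower in 4T1, and 0.852% and 0.797% in 67NR lungs.

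The immunity-related GTPase Irgm2 stood at 9.52, 9.53, 9.52 and 9.74 in 4T1 lungs, 9.50, 9.97, 9.64, 10.28 and 9.79 in 67NR lungs and 9.64, 9.32, 9.45, 9.82 and 9.61 in normal lungs. In 67NR lungs replicates 2 and 4 were above all other arrays of the series, and replicates 1, 3 and 5 were within the normal range. Its log2 change was 0.27 in 67NR against normal lungs (SE 0.13, limma adjusted p = 0.563) and -0.26 in 4T1 against 67NR lungs (limma adjusted p = 0.466). Its neighbour on chromosome 11, Igtp, with the same order of GAS and ISRE letters, had changes of 0.17 and -0.17, with limma adjusted p-values of 0.71 and 0.650. Irgm1, also a regulator in this family, had 0.11 and -0.068.

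The whole class was high in the same arrays: in 67NR replicates 2 and 4 all 8 GTPases stood above their own mean over the 14 arrays, with class means of 0.22 and 0.35. All 8 did so in normal replicate 4 too, with a class mean of 0.13. 67NR replicates 1, 3 and 5 had class means of -0.026, -0.053 and 0.041, inside the normal range of -0.28 to 0.13. The 4T1 lungs ranged from -0.17 to 0.011. In a fit without 67NR replicates 1 and 3, an alternative taken from earlier results of these data, the GTPase median in 67NR against normal lungs was 0.18 and that in 4T1 against 67NR lungs -0.23, and 0 members passed. These replicates had the lowest GTPase class means of their group, so larger medians follow from leaving them out. Without 67NR replicate 4 the median in 67NR against normal lungs was 0.064. Type I interferon genes, 15 of which were tested, had a mean centred level of 0.23 in 67NR replicate 2 and -0.085 in 67NR replicate 4. The part of type I interferon in the GTPase values was not tested.

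Iigp1, an effector GTPase that attacks the vacuoles of parasites, stood at 10.29, 10.02, 10.44 and 10.28 in 4T1 lungs, 10.44, 10.65, 10.02, 10.47 and 10.54 in 67NR lungs and 10.86, 10.35, 9.91, 10.60 and 10.58 in normal lungs. It was lowest in normal replicate 3 and highest in normal replicate 1, and its log2 change of -0.20 in 4T1 against normal lungs (SE 0.17, limma adjusted p = 0.952) was the largest of the class in that comparison. Gbp2, Gbp3 and Gbp7 had log2 changes of 0.051, -0.080 and -0.025 in 4T1 against normal lungs and of 0.11, -0.028 and 0.061 in 67NR against normal lungs, with limma adjusted p-values from 0.685 to 0.992. All 8 GTPases varied more within groups than the median gene, against 4 of 10 class I and 5 of 8 class II genes.

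**Figure D4:**
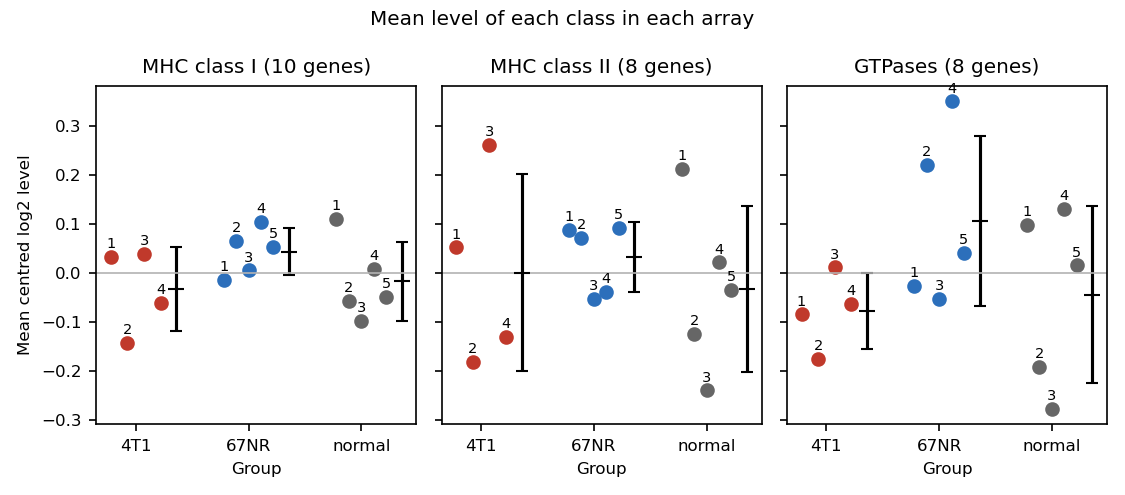
Mean centred log2 level (y axis) of the genes of each class in each array, by group (x axis); points are arrays numbered by replicate and black bars are mean ± SD. Among the GTPases 67NR replicates 2 and 4 stand highest at 0.22 and 0.35, and among the class II genes 4T1 replicate 3 and normal replicate 1 do at 0.26 and 0.21.

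Irf1, the transcription factor that carries the interferon gamma signal to many of these promoters, stood at 10.35, 10.37, 10.32 and 10.54 in 4T1 lungs, 10.44, 10.61, 10.43, 10.80 and 10.47 in 67NR lungs and 10.46, 10.46, 10.39, 10.42 and 10.41 in normal lungs. 67NR replicate 4, the array with the highest GTPases, was also the highest for Irf1. The log2 changes of Irf1 were -0.030, 0.12 and -0.15 in 4T1 against normal, 67NR against normal and 4T1 against 67NR lungs, with limma adjusted p-values of 0.988, 0.625 and 0.411.

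Irf8 stood at 10.09, 9.57, 10.09 and 10.002 in 4T1 lungs, 10.20, 10.44, 9.94, 10.06 and 10.24 in 67NR lungs and 10.35, 9.96, 9.65, 10.27 and 10.20 in normal lungs. 4T1 replicate 2 and normal replicate 3 were lowest, the same arrays in which class II genes and B cell markers were lowest. Its log2 changes were -0.15 in 4T1 and 0.090 in 67NR against normal lungs (limma adjusted p = 0.960 and 0.880).

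Cxcl9, a chemokine that draws T cells and is induced by interferon gamma, was dim, with intensities of 17.5, 25.4, 26.0 and 24.3 in 4T1, 43.1, 6.90, 21.4, 36.9 and 6.16 in 67NR and 4.15, 16.3, 25.8, 4.61 and 5.98 in normal lungs. No detection calls were used here, so these values could not be told from background, and the groups overlapped. Another probe set of Cxcl9 had log2 changes of -0.0054 in 4T1 and 0.032 in 67NR against normal lungs.

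**Figure D5:**
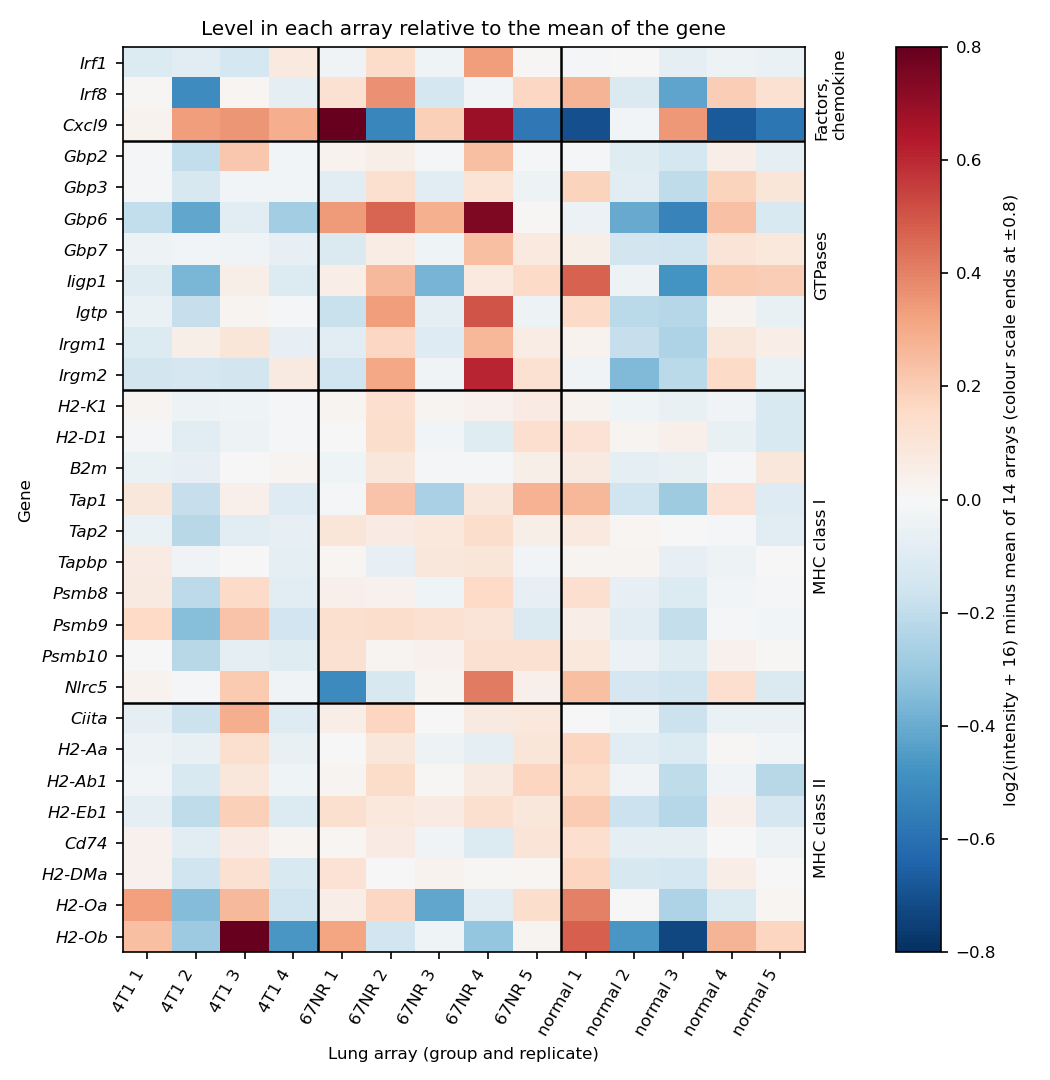
Colour gives log2(intensity + 16) minus the mean of the gene over 14 arrays, for 29 genes (y axis, grouped by class) in each array (x axis, grouped by condition); the colour scale ends at 0.8 in both directions. The columns 4T1 replicate 2 and normal replicate 3 are low across most class II genes, and the columns 67NR replicate 2 and 67NR replicate 4 are high across the GTPases. In the column normal replicate 4 all 8 GTPases also lie above their means, by less on average.

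Upstream of these genes, the ligand and its signalling genes differed between groups by less than the threshold. Ifng itself was under the level limit of the test, with intensities of 9.39 to 27.2 in 4T1, 5.78 to 21.2 in 67NR and 9.45 to 25.2 in normal lungs. The ligand-binding receptor chain Ifngr1 had a mean log2 level of 10.48 ± 0.082 in 4T1 (SD, n = 4), 10.40 ± 0.12 in 67NR (SD, n = 5) and 10.36 ± 0.077 in normal lungs (SD, n = 5), with a log2 change of 0.12 in 4T1 against normal lungs (limma adjusted p = 0.846). Its partner chain Ifngr2 and the kinases Jak1 and Jak2 had log2 changes of 0.023, -0.025 and 0.079 in 4T1 and of -0.094, 0.045 and -0.017 in 67NR against normal lungs, with limma adjusted p-values of at least 0.816. Socs1, an inhibitor of the kinases, was under the limit at a mean log2 level of 7.14 ± 0.20 in 4T1 (SD, n = 4), 7.33 ± 0.18 in 67NR (SD, n = 5) and 7.43 ± 0.11 in normal lungs (SD, n = 5). Among the 12 tested genes of this list 0 passed in any comparison; the inhibitor Socs3 had the smallest p in 4T1 against normal lungs (log2 change 0.35, limma adjusted p = 0.735), and the phosphatase Ptpn11 in 67NR against normal lungs (0.093, adjusted p = 0.511).

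Further genes of the same pathways, taken from lists chosen by function, gave the same count of 0 genes passing limma in all 3 comparisons. Of other genes induced by interferon gamma 9 of 14 with a value were tested, and the median log2 changes over those with a value, here and for the lists that follow, were -0.017, 0.092 and -0.14 in 4T1 against normal, 67NR against normal and 4T1 against 67NR lungs. Gbp2b, another guanylate-binding protein gene, had a log2 change of 0.14 in 67NR against normal lungs (limma adjusted p = 0.519), and Ifi30, a thiol reductase of antigen processing, one of 0.20 in 4T1 against 67NR lungs (adjusted p = 0.211). Of other class I pathway genes 14 of 16 were tested, with medians of -0.022, 0.043 and -0.049 in the same order. Pdia3, a folding enzyme that joins the class I loading complex and serves the endoplasmic reticulum at large, had log2 changes of 0.22 in 67NR against normal lungs (limma adjusted p = 0.228) and -0.16 in 4T1 against 67NR lungs (adjusted p = 0.162). Of other class II pathway genes 15 of 18 were tested, with medians of -0.021, -8.6e-05 and 0.026. Cd40, a receptor of B cells and other antigen-presenting cells, averaged 8.56 ± 0.12 in 4T1 (SD, n = 4), 8.83 ± 0.10 in 67NR (SD, n = 5) and 8.63 ± 0.083 in normal lungs (SD, n = 5), with limma adjusted p = 0.0854 in 4T1 against 67NR lungs. Nfyb had log2 changes of -0.20 in 4T1 against normal lungs (limma adjusted p = 0.422) and -0.23 in 4T1 against 67NR lungs (adjusted p = 0.117). Of type I interferon genes 15 of 18 were tested, with medians of 0.037, 0.070 and -0.032; Oasl1, an antiviral protein, had a log2 change of 0.42 in 4T1 against normal lungs (limma adjusted p = 0.588) and 0.48 in 4T1 against 67NR lungs (adjusted p = 0.186).

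Further probe sets gave a check within the arrays. For 16 members there were 31 probe sets beside the one used, and their sign was that of the probe set used for 16 of 31 in 4T1 against normal lungs, for 29 in 67NR against normal lungs and for 26 in 4T1 against 67NR lungs. Probe sets of 1 gene share the RNA of the same samples.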

How the data were processed

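The authors deposited linear probe set intensities of Affymetrix arrays, 1 value for each of 45101 probe sets and 14 lung samples, already on a common scale; their summarisation, background correction and normalisation are not given in the sources used here. Per the labels, samples were grouped by injected cells into 4 4T1, 5 67NR and 5 normal lungs. By the platform annotation 34958 probe sets carried 1 symbol, 932 several (not used) and 9211 none known here. Intensities were converted to log2(intensity + 16), and the brightest probe set on average stood for each of 18194 genes. Tests covered the brightest 60%, 10916 genes, in limma 3.58.1 (R 4.3.3; lmFit with eBayes, 1 mean per group, 11 residual degrees of freedom, two-sided p-values adjusted by Benjamini-Hochberg over all genes tested). Members and lists were chosen with earlier results of these data known, so nothing here is independent support for a pattern already seen, and no set test was made. Members had values given where they passed, had one of the 3 smallest p-values of their class in a comparison, or were Ciita, Nlrc5, Irf1, Irf8 or Cxcl9. Pathway genes were named from those with one of the 2 smallest p-values of their list in a comparison, and not all such genes are named. Ifng, its receptors, Jak1, Jak2 and Socs1 were named whatever their result. Psmb5, Psmb6, Psmb7, Fcgr4 and the remaining members were named beside them. Correlations with B cell markers were added after the data were seen. The fit was also run on simulated data with independent noise for each gene. The genes described here move together within a lung, so nothing is drawn from that run. Same-numbered arrays of different groups had residual correlations from -0.34 to 0.22 over 13 pairs, and 3 were over 0.1. Differently numbered arrays were not compared, so this check cannot decide whether numbers pair the samples. No label says that they do. The number of arrays limits the precision.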

Additional observations from a re-analysis of the deposited data

Results flagged for a closer look

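In 96 sets of values, 29 genes and 3 class means in each of 3 groups, 1 array stood far from the rest of its group in 6 by Dixon's criterion, where chance flags about 1 in 20. H2-Aa was 12.61 in 4T1 replicate 3, above 12.42 to 12.44 in the other 4T1 lungs. Gbp3 was 9.57 in 4T1 replicate 2, below 9.68 to 9.69 in the other 4T1 lungs. Irgm2 was 9.74 in 4T1 replicate 4, above 9.52 to 9.53 in the other 4T1 lungs. Irf8 was 9.57 in 4T1 replicate 2, below 10.002 to 10.09 in the other 4T1 lungs. Psmb9 was 10.14 in 67NR replicate 5, below 10.37 to 10.40 in the other 67NR lungs. Gbp2 was 10.02 in 67NR replicate 4, above 9.76 to 9.82 in the other 67NR lungs. The cause of these values was not tested.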

How the results depend on the processing

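Over 27 alternatives no member passed in 4T1 against normal or 67NR against normal lungs. In 4T1 against 67NR lungs 1 member, Gbp6, passed with array weights and without 67NR replicate 5 (0 to 1 over fits that each left out 1 array), at log2 changes of -0.62 and -0.70; its sign held in all 27. The class medians in 4T1 against normal lungs, all near 0, turned sign in some alternatives; in the other 2 comparisons each kept its sign in all 27, at sizes that moved by more than 1.5 times in some. With array weights they were -0.033 (class I), -0.049 (class II) and -0.041 (GTPases) in 4T1 against normal, 0.033, 0.014 and 0.063 in 67NR against normal and -0.064, -0.079 and -0.095 in 4T1 against 67NR lungs. Over fits that each left out 1 array, the number of all genes passing was 32 to 66 in 4T1 against normal (45 with all arrays), 0 in 67NR against normal (0) and 41 to 168 in 4T1 against 67NR lungs (83), the last being 41 without 4T1 replicate 1, 46 without 4T1 replicate 4, 55 without 67NR replicate 2 and 168 without 67NR replicate 5. In 4T1 against normal lungs it was 28 with the upper 40% of genes and 29 in a fit of these groups alone; in 67NR against normal lungs 1 without the filter on dim genes and 11 without 67NR replicates 1 and 3; in 4T1 against 67NR lungs 184 with array weights, 52 in a fit of these groups alone and 48 without 67NR replicates 1 and 3. Changes near 0 turned sign: with array weights those in 4T1 against normal lungs of Ciita (-0.0016), H2-Ob (-0.11) and Nlrc5 (-0.0098), and without 67NR replicates 1 and 3 those of Nlrc5 in 67NR against normal (0.12) and 4T1 against 67NR lungs (-0.060). Leaving out 1 array at a time gave ranges of -0.055 to 0.099 for Ciita, -0.12 to 0.35 for H2-Ob and -0.022 to 0.12 for Gbp2 in 4T1 against normal lungs, -0.14 to 0.096 for Nlrc5 and -0.018 to 0.16 for Irf8 in 67NR against normal lungs, and -0.039 to 0.19 for Nlrc5 in 4T1 against 67NR lungs. With the replicate number as a block, which the labels do not state to pair the samples, 45, 0 and 57 genes and 0, 0 and 0 members passed in 4T1 against normal, 67NR against normal and 4T1 against 67NR lungs. The cause of these shifts was not tested.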
